A study of Mus musculus with 9 samples.

Results

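The nuclear-encoded subunits of the mitochondrial respiratory chain and ATP synthase were examined in mouse oocytes from young, aged and nicotinamide mononucleotide (NMN) supplemented groups. Members were taken by gene symbol: the Nduf subunits of complex I and Ndufab1 without the Ndufaf assembly factors, Sdha to Sdhd, the Uqcr genes and Cyc1, Cycs, Cox4i1, Cox5a, Cox5b, the Cox6, Cox7 and Cox8 genes, and the Atp5 genes under old or new names. Pseudogenes were left out. Of 22526 rows in the table, 85 were members, of which 36 belong to complex I, 4 to complex II, 9 to complex III, 1 is cytochrome c, 16 belong to complex IV and 19 to complex V. Ndufa4 and its homologue Ndufa4l2 were counted with complex IV, where the Ndufa4 protein resides. Usmg5 and Atpif1 are older symbols of members of complex V. Cox7a1, Cox7b2 and Cox8b have no row in the table and were not analysed here.

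All libraries were made from metaphase II oocytes of the outbred ICR strain, metaphase II being the stage at which a mature egg waits for fertilisation. The libraries were labelled young, aged or NMN, 3 of each, and the title of the series asks whether NMN, a precursor of the coenzyme NAD, restores the quality of oocytes from older females. No group is given a genotype or an allele, and the labels used here give neither the ages of the mice, nor the age of the supplemented mice, nor the dose and duration of NMN. They also do not give how many oocytes or females stand behind a library, so a p-value here reflects the spread among these 9 libraries alone, and part of that spread may be technical.

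The respiratory chain passes electrons from NADH, through complex I, and from succinate, through complex II, to ubiquinone, complex III, cytochrome c and finally oxygen at complex IV. Complexes I, III and IV pump protons across the inner membrane, and ATP synthase, complex V, uses the returning protons to make ATP. Most subunits are encoded in the nucleus and imported, while the mitochondrial genome encodes a few subunits of complexes I, III, IV and V. A mature oocyte is transcriptionally silent, relies on stored mRNA, and draws much of its ATP from oxidative phosphorylation.

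Values are FPKM as deposited, that is fragments per kilobase of transcript scaled to the library's total of fragments, so that genes can be compared per unit of length. Library depth, estimated from the low values, lay between 16.28 M and 19.25 M reads. A transcript with 3 reads would then have 0.0581 to 0.509 FPKM, depending on the member's length. For 6 members every library lay below that floor, which covers counting error only: Ndufb2, Ndufb7, Ndufs6, Atp5e, Atp5j and Atp5j2. Genes that reached 1 FPKM in 3 or more libraries, 9168 in all, were tested, and 48 members were among them (19, 3, 5, 12 and 8 of complexes I to V, and cytochrome c). The other 37 members reached at most 5.23 FPKM (Uqcrq in aged replicate 2). Because a gene can pass this filter through the group in which it is high, counts and medians over the 48 are descriptions, and the same is given for all 85 members without a filter.

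Aged replicate 2 stood apart before any comparison was made. It lay at 57.2 on the leading principal component (41.2% of the variance), with NMN replicate 1 next at 22.6 and the other 7 libraries between -28.5 and 1.0. It held the highest value of 33 of the 48 tested members (68.8%, against 27.1% of all tested genes) and of 64 of all 85 members. Markers of the oocyte, 12 genes such as Gdf9, Bmp15 and Zp3, summed to 9066, 8292 and 7599 FPKM in young libraries. The sums were 9779, 11450 and 10200 FPKM in aged libraries, all above the young, and 10402, 8373 and 9147 in NMN libraries. At least 11 of the 12 were above 0 in each library. Zp3 was higher in aged than in young libraries (limma adjusted p = 0.0392), but stayed under 0.05 in only 1 fit that left out 1 library. Without aged replicate 2, all 11 tested markers had positive changes between aged and young (median log2 change 0.46), with 0 under 0.05. Whether this bears on the members was not tested. Markers of cumulus and granulosa cells, the somatic cells around the oocyte, summed to 25.6 FPKM in aged replicate 2, with 13 of 14 above 0, and to 4.97 to 8.75 FPKM in the other libraries, with 4 to 7 above 0. Of their defining genes, Ptx3 reached 6.37 FPKM and Inha 3.17 FPKM in that library, and both were listed at 0 in the other 8. Others did not follow: Cyp19a1 was lowest in aged replicate 2, at 3.03 FPKM against 3.05 to 6.21 FPKM elsewhere, and Lhcgr was at 0 there. Cyp19a1 made up most of the marker sum in the other 8 libraries. As the number of cells behind a library is not given, a different number of cells of a type and a different amount of RNA per cell cannot be told apart. Changes of named genes between aged libraries and another group are given with and without aged replicate 2 where leaving it out moved them by more than 1.5 times. The medians of the core subunits of complex I and of the members by length are given only with it.

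Subunit mRNA levels were very uneven, also between subunits of 1 complex. Atp5b, the catalytic beta subunit of ATP synthase, led with a mean of 157 FPKM over the 9 libraries and held 22.2% of the summed FPKM of all members. Cox8a, a small subunit of cytochrome c oxidase, followed at 137 FPKM (19.3%). Uqcrc2, a core protein of complex III, Sdha, the flavoprotein of succinate dehydrogenase, and Atp5c1, the central stalk subunit gamma, had means of 59.2, 53.2 and 39.8 FPKM. The 12 members with means of 10 FPKM or more held 81.3% of the sum, whereas 39 members had means below 1 FPKM. Over the 8 libraries other than aged replicate 2, a set chosen after the data had been seen, 11 members had such means and held 82.4% of the sum, and 44 were below 1 FPKM. The order of the leading 6, with Sdhd as the sixth, was the same, but Cox6a1 averaged 11.4 FPKM in place of 23.3 FPKM. No member of complex I averaged 10 FPKM. Its highest mean, that of the accessory subunit Ndufa6 (9.21 FPKM), rested on 45.1 FPKM in aged replicate 2 and was 4.72 FPKM over the other 8 libraries, where Ndufs4 (7.32 FPKM) and the core subunit Ndufs3 (7.06 FPKM) led.

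Low values were not confined to accessory proteins. Within complex II, Sdha and Sdhd averaged 53.2 and 29.6 FPKM, but Sdhb, the iron-sulphur subunit that forms the catalytic part together with Sdha, lay between 0.116 and 0.659 FPKM in the 9 libraries. Within complex III, Uqcrc2 averaged 59.2 FPKM and its partner core protein Uqcrc1 0.200 FPKM. In complex V, the F1 subunits Atp5b, Atp5c1 and Atp5a1 averaged 157, 39.8 and 18.9 FPKM, while Atp5e, also of F1, was between 0.0305 and 0.245 FPKM, below the 3-read floor of 0.438 FPKM in every library. Values this far apart for partner subunits are per unit of transcript length, and they were not compared with protein. They stand for mRNA copied from an oligo(dT) primer, and whether all subunit mRNAs are copied equally well was not tested.

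Among subunits that exist in tissue or paralog forms, 1 form usually led. Cox6b2, known as the testis form of subunit 6b, averaged 15.2 FPKM against 1.57 FPKM for the widely expressed Cox6b1, and in each of the 9 libraries Cox6b2 was the higher of the pair. Cox6a1, the non-muscle form, lay between 2.81 and 118.0 FPKM and the heart and muscle form Cox6a2 between 0.264 and 4.34 FPKM. Cox8a was at 70.5 to 310.0 FPKM and the testis form Cox8c at no more than 0.671 FPKM. Cox7a2 and Cox7a2l, the latter a factor of supercomplex assembly, averaged 14.6 and 17.8 FPKM. Of the 3 genes whose products give the same mature c subunit of the ATP synthase ring, Atp5g2 averaged 4.32, Atp5g3 1.52 and Atp5g1 0.383 FPKM. Ndufa4l2, a hypoxia-responsive homologue of Ndufa4, was listed at 0 in 7 libraries, at 1.96 FPKM in aged replicate 2 and at 0.489 FPKM in NMN replicate 1.

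Members with near-identical copies in the genome need care, because reads can be assigned to either copy. At 95% identity over at least 50% of the transcript, 11 members had such a copy in the annotation and 6 had one in the table. Atp5h, subunit d of the peripheral stalk, was at 2.2 to 15.0 FPKM, and its copy Gm10250 at 12.4 to 22.4 FPKM. Atp5l was at 0.0557 to 0.687 FPKM and its 4 copies in the table summed to 1.30 to 5.96 FPKM. The values of Atp5h and Atp5l, and any separation of groups or call that rests on them, are therefore uncertain. The copies of Ndufs3, Uqcrb, Atp5g2 and Atp5o in the table summed to at most 1.43 FPKM per library.

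Promoters of respiratory genes are known for sites of NRF1, of the ETS factor GABP and of YY1, and the sequences of members were searched for them. RefSeq promoters (GRCm38.p6), windows of 300 bases from 250 before to 50 after the start, were matched for 69 of the 85 members by symbol. The NRF1 motif, GCGCA then any base then GCGC, was present on either strand in 18 members (26.1%) and in 7.2% of the promoters of 17492 genes. CCGGAAG, the ETS core, was present in 17 members (24.6%, against 12.9%), and AAGATGGCG, the YY1 motif, in 7 members (10.1%, against 2.1%). The general motifs GGGCGG (44.9%, against 49.2%), CCAAT (43.5%, against 42.3%) and TATAAA (8.7%, against 14.8%) and the median GC content (58.5%, against 56.3%) lay closer to, or below, those of all genes. Both strands were searched for each motif, no motif contains another, overlaps between matches were not counted, and a match is a description of sequence, not a bound site. NRF1 and ETS matches stood together in 4 members: Atp5h, Atp5k, Cox6a1 and Sdhd. The 250 bases before the start are shown for Ndufc2, the member called between aged and young oocytes, for Cox6a1, the member with the largest difference between those groups, and for Sdhd, a complex II member whose groups did not overlap. They are written 5′ to 3′ along the gene's strand, and capitals mark the matches to the 3 respiratory motifs. They lie at chr7:97399753-97400002 (plus strand), chr5:115348959-115349208 (minus strand) and chr9:50603850-50604099 (minus strand).
Ndufc2: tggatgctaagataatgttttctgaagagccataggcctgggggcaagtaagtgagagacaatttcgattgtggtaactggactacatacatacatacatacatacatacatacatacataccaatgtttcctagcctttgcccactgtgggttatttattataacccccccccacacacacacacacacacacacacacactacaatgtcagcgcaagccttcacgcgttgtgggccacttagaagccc
Cox6a1: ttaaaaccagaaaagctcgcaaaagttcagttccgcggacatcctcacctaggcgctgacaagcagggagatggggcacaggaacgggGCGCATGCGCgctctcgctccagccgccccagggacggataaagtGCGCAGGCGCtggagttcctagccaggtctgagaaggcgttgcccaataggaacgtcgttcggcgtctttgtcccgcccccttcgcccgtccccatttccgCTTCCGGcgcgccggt
Sdhd: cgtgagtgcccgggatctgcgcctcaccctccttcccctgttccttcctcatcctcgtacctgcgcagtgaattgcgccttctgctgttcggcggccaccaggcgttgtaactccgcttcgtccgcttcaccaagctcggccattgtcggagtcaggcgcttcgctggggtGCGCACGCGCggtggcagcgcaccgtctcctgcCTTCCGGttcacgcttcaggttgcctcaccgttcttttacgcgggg
The stretch before Ndufc2 held no match, that before Cox6a1 held GCGCATGCGC and GCGCAGGCGC for NRF1 and CTTCCGG for ETS, and that before Sdhd held GCGCACGCGC and CTTCCGG, where CTTCCGG is CCGGAAG read on the other strand.

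Aged and young oocytes were compared first, which bears on how maternal age alters the stored mRNA. Fitted changes were positive for most tested subunit genes of complexes I and IV and lay near 0 or below it for the F1 head of complex V. Ndufc2, an accessory subunit in the membrane arm of complex I, was the 1 member that rose (limma with Benjamini-Hochberg adjustment over all 9168 genes, adjusted p under 0.05), against 1.32% of all tested genes called higher, and no member fell, against 0.851%. Of the 48 tested members, 39 had a fitted log2 change above 0 (48.3% of all tested genes), 23 were higher at an unadjusted p under 0.05 (9.88%) and 2 were lower (8.28%). The 3 aged libraries all lay above the 3 young ones for 22 tested members (12.6%) and below for 4 (11.2%). Over all 85 members without a filter, 36 lay above (8.41%) and 4 below (6.94%), and 74 had a fitted change above 0 (48.9%), with 0 called. The median log2 change was 0.70 over the tested members and -0.01 over all tested genes. Without aged replicate 2, it was 0.42 over the 43 members that then pass the filter, and the count of positive changes 29 of 43. Aged replicates 1 and 3 taken alone lay above all young libraries for 22 tested members (18.7%) and below for 6 (19.2%). Over all 85 members these 2 libraries lay above for 36 (13.6%) and below for 6 (11.5%).

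**Figure D1:**
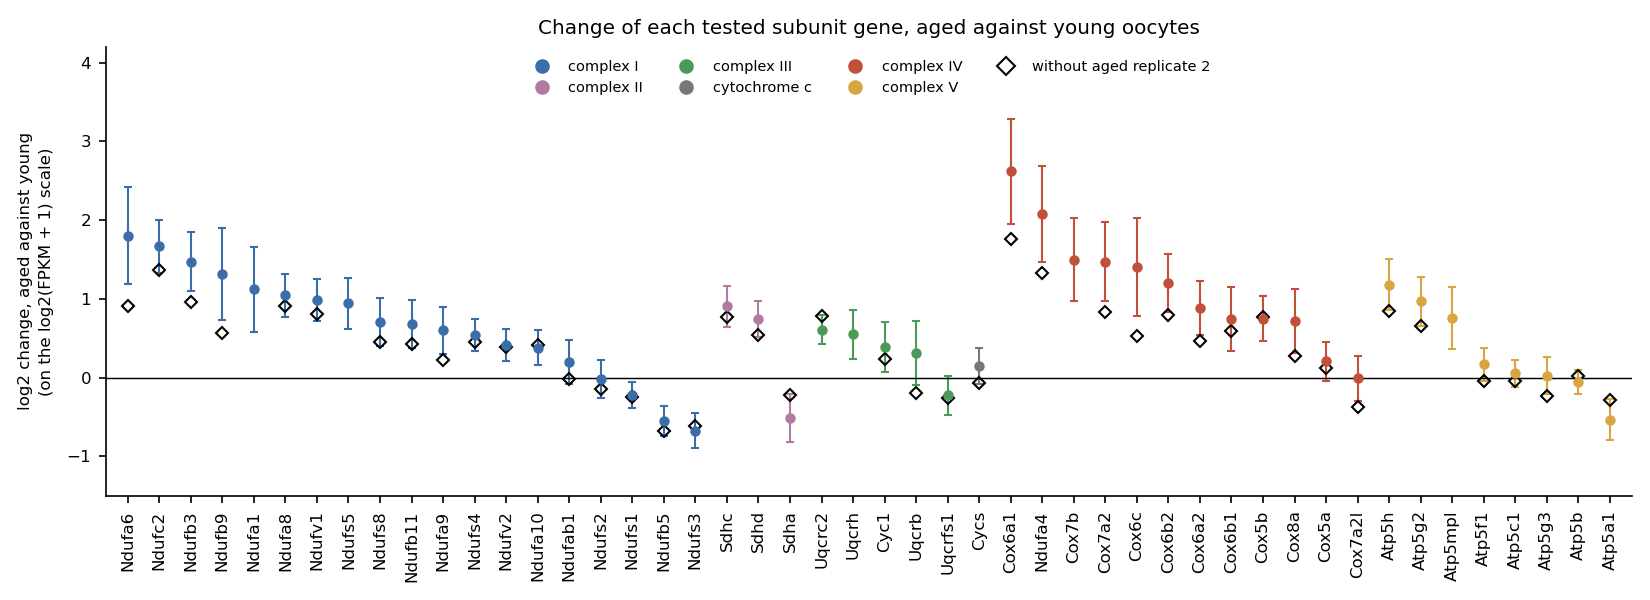
Fitted log2 change between aged and young oocytes (vertical axis, log2(FPKM + 1) scale) for the 48 tested members, ordered by complex; points give the change with its SE, and open diamonds the change without aged replicate 2, absent for 5 members that no longer pass the filter. Cox6a1 stands highest at 2.62, and most diamonds lie nearer to 0 than their points.

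Ndufc2 (ENSMUSG00000030647) was at 3.01, 1.53 and 2.14 FPKM in the young libraries, 6.43, 15.1 and 7.80 in the aged and 7.96, 3.34 and 3.61 in the NMN libraries. All aged libraries lay above all young ones, and all NMN libraries lay above the young as well. The log2 change between aged and young was 1.67 ± 0.34 (SE, limma, adjusted p = 0.0376, n = 3 per group). The call was lost in 6 of the 9 fits that left out 1 library, with adjusted p of 0.0802, 0.149 and 0.139 without young replicates 1, 2 and 3, 0.0572 and 0.0880 without aged replicates 2 and 3, and 0.0540 without NMN replicate 3. The direction was kept in all 9, and without aged replicate 2 the change was 1.37.

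Other accessory subunits of complex I had differences of similar size that missed the threshold. Ndufa8, an accessory subunit facing the intermembrane space, was at 2.64, 1.87 and 1.03 FPKM in young and 4.16, 6.28 and 4.11 in aged libraries, which do not overlap (log2 change 1.05 ± 0.27 SE, limma adjusted p = 0.0808). Ndufb3, of the membrane arm, was at 3.06, 3.32 and 2.04 FPKM in young and 6.66, 21.3 and 5.90 in aged libraries (1.47 ± 0.38 SE, adjusted p = 0.0782; 0.97 without aged replicate 2), and aged replicate 2 was more than 3 times as high as the other aged libraries. Ndufa6 was at 1.58 to 3.29 FPKM in young libraries and at 5.36, 45.1 and 6.0 in aged ones (1.80 ± 0.62 SE, adjusted p = 0.165; 0.91 without aged replicate 2). Of 13 tested accessory subunits, 12 had positive changes (median 0.94; 0.46 over the 11 left without aged replicate 2).

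The core subunits of complex I, which carry the flavin and the iron-sulphur clusters, were divided. Of 7 core members 6 were tested, and 3 had positive and 3 negative changes (median 0.20). Ndufv1, which holds the NADH-binding flavin site, was at 4.2, 3.01 and 1.61 FPKM in young and 5.63, 9.19 and 5.48 in aged libraries, without overlap (log2 change 0.99 ± 0.26 SE, limma adjusted p = 0.0879). Ndufs3 was at 8.43, 7.15 and 9.37 FPKM in young and 6.41, 4.65 and 3.86 in aged libraries, without overlap in the opposite direction (-0.67 ± 0.22 SE, adjusted p = 0.149). Ndufs1 was likewise lower in all aged libraries, at 0.802 to 1.12 FPKM against 1.20 to 1.33 FPKM, and so was the accessory Ndufb5, at 0.877 to 1.83 against 2.26 to 2.6 FPKM. Fitted changes of subunits of this 1 complex thus had both signs. Ndufs4, an accessory subunit near the flavin site, was at 5.42 to 7.21 FPKM in young and 7.39 to 11.3 in aged libraries (0.54 ± 0.20 SE, adjusted p = 0.190).

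In complex II, the fitted changes were positive for the membrane anchors and negative for the catalytic subunit Sdha. Sdhb, its catalytic partner, did not pass the filter. The mean of Sdhb was higher with age (0.511 FPKM, against 0.213 FPKM for the young group), but its groups overlapped. Over all 4 members without a filter, 3 changes were positive and 1 was negative, so the opposite sign was that of Sdha and not of the catalytic part as a whole. Sdhd (ENSMUSG00000000171), which binds ubiquinone together with Sdhc, was at 23.4, 25 and 21.0 FPKM in young and 35.3, 56.0 and 32.2 in aged libraries (log2 change 0.75 ± 0.23 SE, limma adjusted p = 0.130). Sdhc was at 2.28, 1.33 and 1.5 FPKM in young and 3.04, 5.33 and 4.08 in aged libraries (0.91 ± 0.26 SE, adjusted p = 0.113). Neither anchor overlapped between the groups, and neither passed the threshold. Sdha was at 50.2, 55.6 and 69.7 FPKM in young and 47.1, 28.4 and 51.1 in aged libraries, which overlap (-0.51 ± 0.30 SE, adjusted p = 0.405). The lowest library for Sdha was aged replicate 2, without which its change was -0.22, and those of Sdhd and Sdhc were 0.54 and 0.78. The summed FPKM of complex II averaged 83.5 ± 8.22 for the young, 88.0 ± 2.35 for the aged and 86.7 ± 12.5 for the NMN group (SD, n = 3), differences smaller than the SD of the young and of the NMN group.

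In complex III the summed level did not overlap between aged and young libraries, and 1 gene made up most of it. The sum was 56.8, 55.2 and 52.1 FPKM in young, 87.8, 85.6 and 87.1 in aged, and 79.0, 61.7 and 68.8 in NMN libraries. Uqcrc2 (ENSMUSG00000030884) alone was at 47.8, 47.4 and 41.7 FPKM in young, 79.0, 59.0 and 76.8 in aged, and 68.0, 55.5 and 57.7 in NMN libraries. Both the aged and the NMN libraries lay above all young ones, and aged replicate 2 was the lowest of the aged libraries, unlike for most members. The log2 change between aged and young was 0.61 ± 0.18 (SE, limma adjusted p = 0.123), and it passed the threshold without aged replicate 2 (0.78, adjusted p = 0.0352, where 1.5% of all tested genes were called higher). Uqcrh, the hinge protein, Cyc1, the cytochrome c1 subunit, and Uqcrfs1, the Rieske protein, had changes of 0.55, 0.39 and -0.23, with overlapping groups (adjusted p from 0.382 to 0.682). The change of Cyc1 was 0.23 without aged replicate 2, and Uqcrh then no longer passed the filter. Cycs, cytochrome c itself, lay between 0.845 and 1.48 FPKM in the young group, between 0.952 and 2.31 in the aged and between 1.30 and 1.97 with NMN, overlapping throughout (0.15 between aged and young, and -0.07 without aged replicate 2).

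Complex IV held the largest differences and also the largest dependence on aged replicate 2. Cox6a1 (ENSMUSG00000041697) was at 6.82, 4.75 and 2.81 FPKM in young, 10.8, 118.0 and 28.5 in aged and 17.2, 6.40 and 14.0 in NMN libraries. All aged libraries were above all young ones, but they spanned a more than 10-fold range (log2 change 2.62 ± 0.67 SE, limma adjusted p = 0.0779; 1.76 without aged replicate 2, and adjusted p = 0.0232 without aged replicate 1). Ndufa4 was at 4.2, 2.83 and 1.58 FPKM in young, 4.60, 46.1 and 14.3 in aged and 12.8, 5.23 and 7.40 in NMN libraries (2.08 ± 0.61 SE, adjusted p = 0.119; 1.33 without aged replicate 2, and adjusted p = 0.0279 without aged replicate 1). Leaving out aged replicate 1 thus brought both past the threshold, with 3 members called in all (1.29% of all tested genes called higher). Cox6b2 was at 11.1, 6.07 and 6.47 FPKM in young and 12.3, 36.7 and 15.3 in aged libraries, again without overlap (1.21 ± 0.37 SE, adjusted p = 0.126; 0.79 without aged replicate 2). Cox8a, the most abundant subunit of the complex, was at 129.0, 89.3 and 70.5 FPKM in young and 111.0, 310.0 and 112.0 in aged libraries, which overlap (0.72 ± 0.41 SE, adjusted p = 0.383; 0.27 without aged replicate 2).

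Paralogs within complex IV did not share 1 pattern. Cox7a2 had 4.90 to 7.92 FPKM in young and 10.6, 48.8 and 12.2 in aged libraries (log2 change 1.47 ± 0.50 SE, limma adjusted p = 0.162; 0.84 without aged replicate 2). Cox7a2l had 15.1 to 19.0 FPKM in young and 12.1, 29.6 and 12.7 in aged libraries (-0.01 ± 0.28 SE, adjusted p = 0.993; -0.37 without aged replicate 2), so that aged replicates 1 and 3 were below, and aged replicate 2 above, all young libraries. Cox7b was at 0.142 to 0.856 FPKM in young and 1.76, 11.2 and 1.24 in aged libraries (1.5 ± 0.53 SE, adjusted p = 0.174) and no longer passed the filter without aged replicate 2. It reached 1 FPKM in the aged libraries alone, so it was tested only through the group in which it was high. Its difference and separation of groups are therefore descriptions. Cox6a2 and Cox6b1 had changes of 0.89 and 0.75 with overlapping groups (adjusted p = 0.204 and 0.358), and of 0.46 and 0.59 without aged replicate 2. Over the 12 tested members of complex IV, the median change was 1.05, and 0.59 over the 11 left without aged replicate 2. The summed FPKM of complex IV averaged 144 ± 41.2 for the young, 347 ± 266 for the aged and 221 ± 88.6 for the NMN group (SD, n = 3), with 654 FPKM in aged replicate 2 and 176 and 212 in the other aged libraries.

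**Figure D2:**
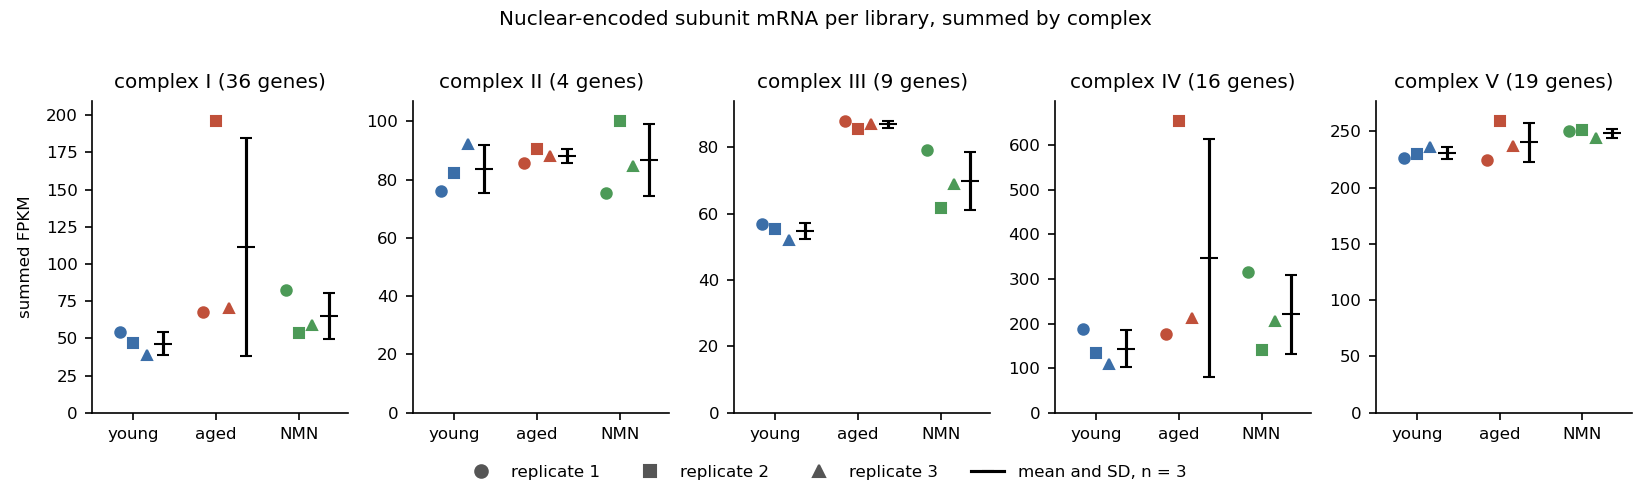
FPKM summed over the members of each complex (vertical axis) in each library of the young, aged and NMN groups; symbols mark replicates and bars the mean and SD (n = 3). The aged sums of complexes I and IV are spread by replicate 2 (196 and 654 FPKM), those of complex III lie between 85.6 and 87.8 FPKM, above all young libraries, and those of complex V lie between 225 and 259 FPKM.

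ATP synthase had a median change of 0.11 between aged and young libraries, and of -0.04 without aged replicate 2. Atp5b was at 152, 154 and 159 FPKM in young, 153, 145 and 158 in aged, and 160.0, 175 and 162 in NMN libraries. Aged and young libraries overlapped (log2 change -0.05 ± 0.15 SE, limma adjusted p = 0.895). Atp5c1 had 35.7 to 38.5 FPKM in young and 32.5 to 47.7 in aged libraries (0.05 ± 0.17 SE, adjusted p = 0.902). Both changes turned sign without aged replicate 2, to 0.02 for Atp5b and -0.05 for Atp5c1. Atp5a1, the alpha subunit that forms the catalytic ring with Atp5b, was at 18.4, 21.6 and 25.7 FPKM in young and 17.5, 10.9 and 17.4 in aged libraries, all aged below all young (-0.53 ± 0.26 SE, adjusted p = 0.308; -0.29 without aged replicate 2). Outside the head, Atp5h was at 3.96, 3.57 and 2.2 FPKM in young and 7.41, 15.0 and 5.53 in aged libraries (1.18 ± 0.32 SE, adjusted p = 0.0912), with the uncertainty from its copy given above. Atp5g2 of the c ring was at 2.08 to 3.64 FPKM in young and 4.07, 10.5 and 5.27 in aged libraries (0.97 ± 0.31 SE, adjusted p = 0.140), and its paralog Atp5g3 overlapped (0.03 ± 0.24 SE, adjusted p = 0.969; -0.24 without aged replicate 2). The complex V sum averaged 231 ± 4.99 FPKM for the young, 240.0 ± 16.9 for the aged and 248 ± 4.07 for the NMN group (SD, n = 3).

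Set side by side, the median log2 changes between aged and young were 0.68 for complex I (19 members), 0.75 for complex II (3), 0.39 for complex III (5), 1.05 for complex IV (12) and 0.11 for complex V (8). Without aged replicate 2 they were 0.42, 0.54, 0.02, 0.59 and -0.04. The difference between complexes was not tested, since members of a complex are not replicates. With library quality weights, which let limma give less weight to libraries that fit the group means poorly, 12 members were called higher and 2 lower (5.51% and 4.23% of all tested genes). The 12 were Ndufc2, Ndufa8, Ndufb3, Ndufv1, Sdhc, Uqcrc2, Cox6a1, Ndufa4, Cox6b2, Cox7a2, Atp5g2 and Atp5h, and the 2 were Ndufs3 and Ndufb5. The call of Atp5h carries the uncertainty from its near-identical copy.

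**Figure D3:**
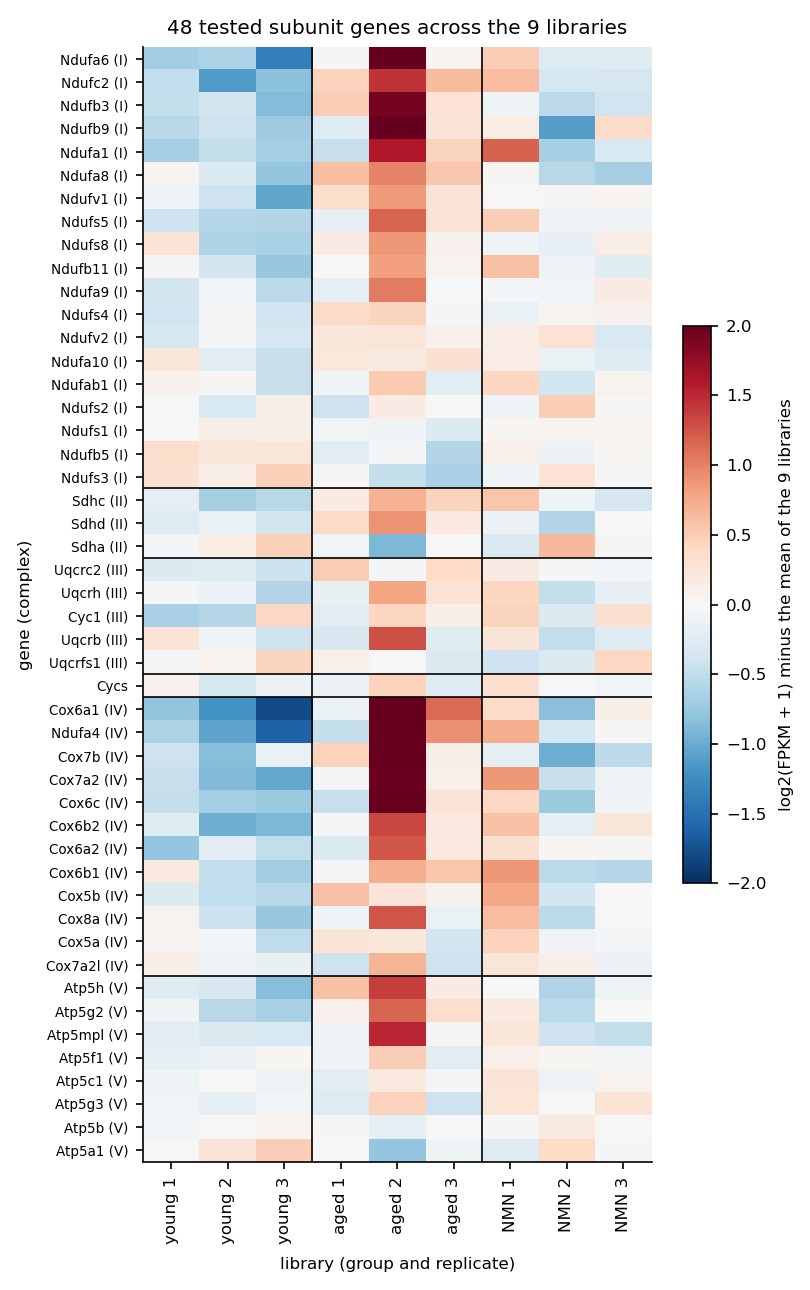
Each tested member's log2(FPKM + 1) in each library, as the difference from its mean over the 9 libraries (colour, limited to the range -2 to 2), with genes grouped by complex. The column of aged replicate 2 is red for most genes of complexes I and IV, NMN replicate 1 is mostly pale red, and the young columns are mostly blue.

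Subunits of the respiratory chain have short mRNAs, and the difference between aged and young libraries moved with length across all genes. The tested members had a median transcript length of 944 nt, against 2644 nt for all tested genes. All 18 tested members under 700 nt had positive changes (median 1.05). Without aged replicate 2, Uqcrb moved from 0.32 to -0.20, and Ndufa1, Ndufs5, Uqcrh and Atp5mpl no longer passed the filter. The other members of that length stayed positive. Protein-coding genes under 700 nt, 138 in number and members included, had a median of 0.64, and 80.4% of them were positive. They were a part of the 711 tested genes of any type under 700 nt. In length bins over all tested genes, the medians around 349, 558 and 731 nt were 0.17, 0.19 and 0.26. Those medians were 0.14, 0.07 and 0.17 without aged replicate 2, so they did not keep rising towards the shortest genes. The 15 members of 700 to 1500 nt had a median of 0.68 (all genes of that length 0.18) and the 15 members from 1500 nt a median of 0.19 (all genes of that length -0.05). With each library's trend on length removed, the member median was 0.51, and Ndufc2 was still the 1 member called. With aged replicate 2 left out as well, a fit chosen after the data had been seen, the median was 0.34 and 3 members were called, Ndufc2, Ndufb3 and Uqcrc2, all higher (1.54% of all tested genes), with 0 lower (1.34%). The part of transcript length in the single differences was not tested further.

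**Figure D4:**
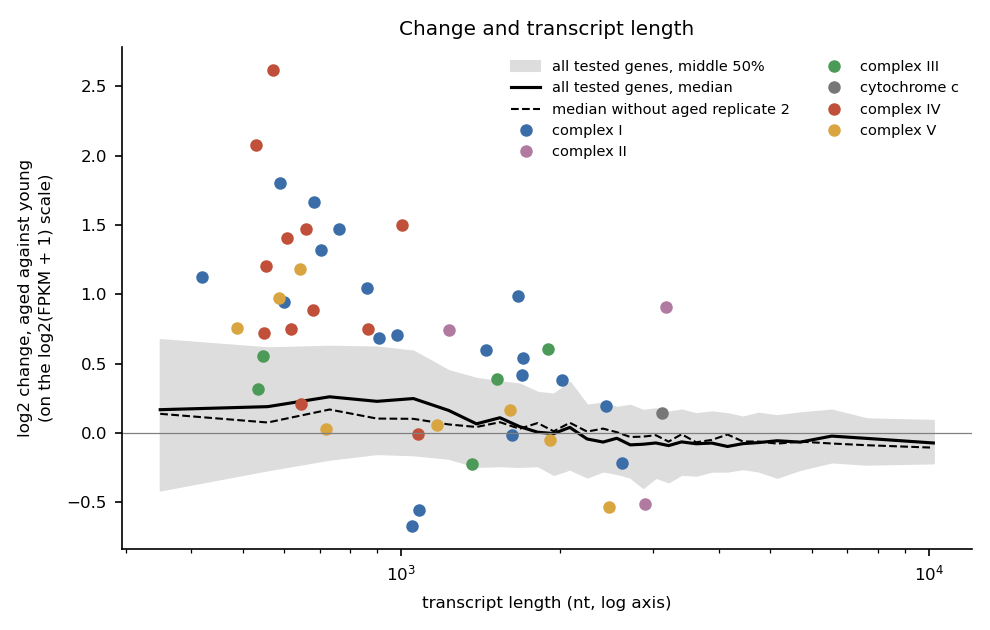
Fitted log2 change between aged and young oocytes (vertical axis, log2(FPKM + 1) scale) against transcript length (nt, log axis); coloured points are the 48 tested members by complex, the line and band the median and middle 50% of all tested genes in bins of about equal number, and the dashed line the median without aged replicate 2. Most points of complexes I and IV under 1000 nt lie above the median line.

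The NMN libraries were then compared with the aged ones, which bears on whether supplementation shifts these mRNAs, and no member was called in either direction (limma, adjusted p under 0.05; 0.12% of all tested genes were called higher and 0.0982% lower). At an unadjusted p under 0.05, 6 members were lower (5.64% of all tested genes) and 0 higher (5.55%). The groups did not overlap for 6 members that were lower in NMN (6.51%) and 3 that were higher (9.09%). The median log2 change over the tested members was -0.30 (0.00 over all tested genes), and 13 of 48 were positive (50.4%). Over all 85 members without a filter, 14 were positive (45.5%), and the groups did not overlap for 3 higher (5.5%) and 10 lower (5.11%). Without aged replicate 2 the median was 0.02, with 22 of 43 positive, and without aged replicate 1 it was -0.52. The negative median thus stood only while aged replicate 2 was included.

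The smallest p-values belonged to Ndufa8, Ndufb3, Sdhd, Cox7b and Atp5h. Ndufa8 was at 2.76, 1.37 and 1.26 FPKM in NMN libraries, below the 4.11 to 6.28 FPKM of all aged libraries (log2 change -1.10 ± 0.27 SE, limma adjusted p = 0.160). It was -0.97 without aged replicate 2, and it passed the threshold with library quality weights (-1.11, adjusted p = 0.0414, where 0.851% of all tested genes were called lower); 0 members were then called higher (0.764%). Sdhd was at 27.0, 18.0 and 28.7 FPKM in NMN libraries, below all aged libraries (-0.73 ± 0.23 SE, adjusted p = 0.288), and Ndufb3 at 4.52, 2.88 and 3.41 FPKM, likewise below them (-1.23 ± 0.38 SE, adjusted p = 0.272). Cox7b and Atp5h were also lower in all NMN libraries, with log2 changes of -1.60 ± 0.53 and -0.95 ± 0.32 (SE, adjusted p = 0.304 and 0.315). For Atp5h this carries the uncertainty from its near-identical copy. Cox7b reached 1 FPKM in the aged libraries alone and was tested only through that group. Its p-value and separation from the NMN libraries are therefore descriptions. Leaving out aged replicate 2 gave -0.73 for Ndufb3, -0.53 for Sdhd and -0.62 for Atp5h, and Cox7b no longer passed the filter. The non-overlap of these 5 and of Ndufv1 (-0.46 ± 0.26 SE, adjusted p = 0.544) stood beside 3 members higher in all NMN libraries, Atp5b (0.10; 0.02 without aged replicate 2), Ndufs3 (0.43) and Ndufs1 (0.18). For Ndufv1 the change without that library was -0.29. Ndufs3 was at 6.41, 8.16 and 6.69 FPKM in NMN libraries, the lowest of which equals aged replicate 1 at this precision. The members with the largest aged values, Cox6a1 and Ndufa4, overlapped between NMN and aged libraries (-1.47 ± 0.67 and -0.84 ± 0.61 SE, adjusted p = 0.452 and 0.639). So did Sdhc (-0.39), Uqcrc2 (-0.26), Uqcrh (-0.38) and Atp5g2 (-0.66), with adjusted p from 0.466 to 0.682. On leaving out aged replicate 2, Cox6a1 was at -0.62, Ndufa4 at -0.10, Sdhc at -0.26, Uqcrc2 at -0.44 and Atp5g2 at -0.36.

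Against young oocytes, the NMN libraries again had no member called (0.0654% of all tested genes were called higher and 0.0109% lower by limma), also with the replicate number as a block. At an unadjusted p under 0.05, 2 members were higher (3.96% of all tested genes) and 0 lower (4.29%). The 2 were Ndufc2 (log2 change 0.80 ± 0.34 SE, adjusted p = 0.585) and Cox6b2, at 21.2, 11.2 and 16.3 FPKM in NMN against 6.07 to 11.1 FPKM in young libraries (0.91 ± 0.37 SE, adjusted p = 0.543). The groups did not overlap for 11 members higher in NMN (9.58%), among them Ndufa4 (1.24 ± 0.61 SE, adjusted p = 0.648), Ndufv1 (0.52), Uqcrc2 (0.35), Atp5g3 (0.27) and Atp5b (0.05), and for 1 lower, Ndufb5 (6.99%). The median log2 change was 0.27 (0.01 over all tested genes), with 39 of 48 positive (51.3%). Over all 85 members without a filter, 67 were positive (46.7%), and the groups did not overlap for 15 higher (6.23%) and 1 lower (4.94%). Sdha (-0.07), Sdhc (0.52), Cyc1 (0.43) and Atp5g2 (0.31) overlapped. Without NMN replicate 1, the library with the highest member values of its group, the median was 0.14. By complex the medians were 0.28, 0.02, 0.17, 0.53 and 0.13 for complexes I to V.

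The 3 comparisons share libraries, so the values are best read side by side. Ndufc2 had fitted log2 values of 1.67 for aged against young, -0.87 between NMN and aged, and 0.80 between NMN and young, and only the first passed the threshold. For Ndufa8 the fitted values were 1.05, -1.10 and -0.05, and for Sdhd 0.75, -0.73 and 0.02, none of which passed. For Uqcrc2 they were 0.61, -0.26 and 0.35, and for Cox6b2 1.21, -0.29 and 0.91. The first 2 values were, without aged replicate 2, 1.37 and -0.58 for Ndufc2, 0.91 and -0.97 for Ndufa8, 0.54 and -0.53 for Sdhd, 0.78 and -0.44 for Uqcrc2, and 0.79 and 0.12 for Cox6b2. Ndufa8 and Sdhd thus had NMN levels near the young ones, and Cox6b2 had NMN levels nearer to the aged ones, as fitted values without a call.

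**Figure D5:**
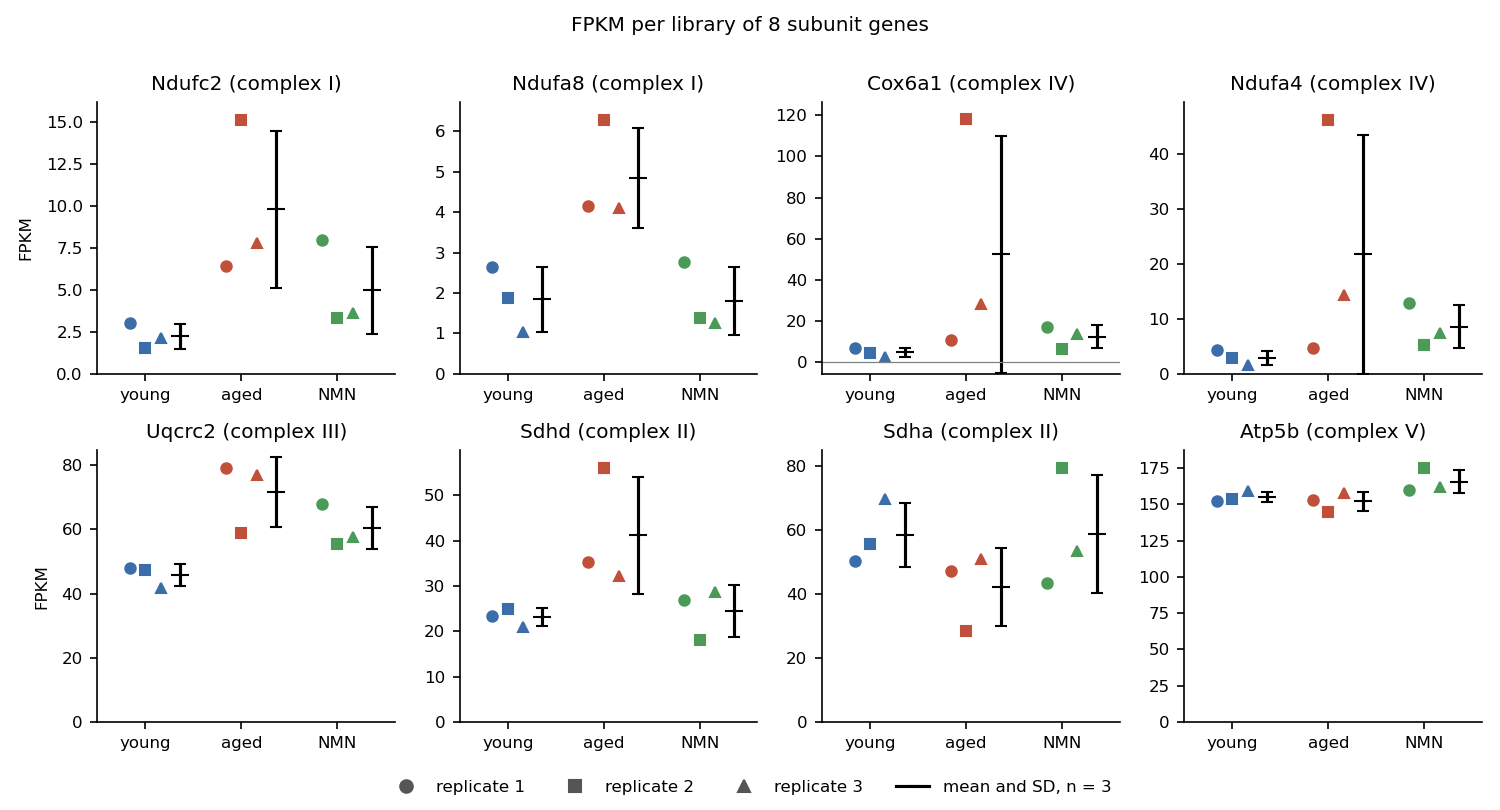
FPKM (vertical axis) of 8 members in each library of the young, aged and NMN groups; symbols mark replicates and bars the mean and SD (n = 3), which for aged Cox6a1 reach below 0. Ndufc2, Ndufa8, Uqcrc2 and Sdhd separate aged from young libraries, Cox6a1 and Ndufa4 do so with 1 far point, Sdha overlaps, and Atp5b stays between 145 and 175 FPKM.

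Genes that act around these complexes were examined as lists. Among 12 tested assembly factors of complex IV, 1 rose in aged oocytes (1.32% of all tested genes): Surf1, an assembly factor of its catalytic core, was at 3.69, 4.0 and 3.36 FPKM in aged libraries and 1.24 ± 0.0242 FPKM in young ones (SD, n = 3; log2 change 1.05 ± 0.20 SE, limma adjusted p = 0.0313). The 3 aged values lay close together and above all young ones, and the NMN libraries were at 2.35 ± 0.835 FPKM, but the call was lost in 6 of the 9 fits that left out 1 library, with adjusted p of 0.0936, 0.116 and 0.129 without young replicates 1, 2 and 3, 0.0595 and 0.0807 without aged replicates 1 and 3, and 0.0540 without NMN replicate 3. None of 10 assembly factors of complex I, 3 of complexes II and III and 3 of complex V was called higher (1.32% of all tested genes) or lower (0.851%). The smallest p-values there belonged to Dmac2 (0.69 ± 0.24 SE, adjusted p = 0.166), Sdhaf4 (0.69 ± 0.34 SE, adjusted p = 0.315) and Tmem70, needed for ATP synthase assembly (1.0 ± 0.25 SE, adjusted p = 0.0712). When aged replicate 2 was left out, the change of Sdhaf4 was 0.43, and Timmdc1, an assembly factor of complex I, was called lower (0.905% of all tested genes).

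With all 9 libraries fitted, the lists of supply and regulation held no call between aged and young. Of all tested genes, 1.32% were called higher and 0.851% lower, shares at which lists this short can hold none. None of 8 genes for copying and transcribing mitochondrial DNA was called, with Twnk, the mitochondrial helicase, at the smallest p (0.45 ± 0.23 SE, limma adjusted p = 0.326). None of 6 nuclear regulators of respiratory genes was called, with the coactivator Ppargc1b at -0.39 ± 0.19 (SE, adjusted p = 0.312). Of 12 genes of the tricarboxylic acid cycle none was called, and Sucla2, of succinyl-CoA synthetase, was at -0.70 ± 0.27 (SE, adjusted p = 0.203). Among 3 genes of other electron entry routes, Etfa was at 0.57 ± 0.15 (SE, adjusted p = 0.0905). It encodes the alpha subunit of the electron transfer flavoprotein, which carries electrons from fatty acid oxidation towards ubiquinone. Etfb and Etfdh of the same route were not tested, at no more than 0.0528 and 0.048 FPKM. Slc25a5, an ADP/ATP carrier of the inner membrane, was at 0.87 ± 0.20 (SE, adjusted p = 0.0596) among 7 carriers. With aged replicate 2 left out, Slc25a31, another ADP/ATP carrier, was called higher (1.5% of all tested genes). Timmdc1 and Slc25a31 are named after their values were seen. No gene of these lists was called between NMN and aged libraries (0.12% of all tested genes higher and 0.0982% lower). The same held between NMN and young libraries (0.0654% and 0.0109%).

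The mitochondrially encoded partners lay on the other side of 0. All 10 tested mitochondrial mRNAs had negative changes between aged and young libraries (median -0.74, where 48.3% of all tested genes were positive), and 2 fell, against 0.851% of all tested genes: mt-Atp6, a proton channel subunit of ATP synthase, by 1.59 ± 0.24 on the log2 scale (SE, limma adjusted p = 0.0122) and mt-Nd1, a subunit of complex I, by 0.99 ± 0.19 (adjusted p = 0.0316). In NMN libraries mt-Atp6 was at 71.6 ± 3.63 and mt-Nd1 at 798 ± 97.5 FPKM (SD, n = 3), neither called against aged or young libraries. On leaving out 1 library, mt-Atp6 lost its call in 3 of 9 fits, without young replicates 2 and 3 and aged replicate 3 (adjusted p = 0.0743, 0.0739 and 0.0521). For mt-Nd1 the call was lost in 6 of 9 fits, with adjusted p of 0.0892, 0.127 and 0.129 without young replicates 1, 2 and 3, 0.0529 and 0.0928 without aged replicates 1 and 3, and 0.0540 without NMN replicate 3. With aged replicate 2 left out, the median of the 10 was -1.11 and 6 were called lower (0.905% of all tested genes), mt-Atp6, mt-Co1, mt-Co2, mt-Nd1, mt-Nd2 and mt-Nd4. The 12 mitochondrial mRNAs listed, which did not include mt-Atp8, summed to 5483 ± 441 FPKM for the young, 3430 ± 1202 for the aged and 4085 ± 415 for the NMN group (SD, n = 3). A few genes carried these sums: in young libraries mt-Cytb, mt-Co1 and mt-Nd1 averaged 1680, 1360 and 1250 FPKM. There mt-Co2, mt-Co3, mt-Nd4l and mt-Nd3 averaged 15.5, 3.51, 0.374 and 0.284 FPKM. Near-identical copies of mitochondrial mRNAs were not searched for. The aged sums were 2848, 4813 and 2630 FPKM, so that aged replicate 2 lay nearer to the young libraries, at 5126 to 5977 FPKM, than the other aged libraries. The nuclear-encoded members summed to 560.0 ± 39.1, 875 ± 357 and 692 ± 102 FPKM in the same order, with 1286 FPKM in aged replicate 2 and 644 and 696 in the other aged libraries. No test was made on these sums.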

How the data were processed

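Per the labels' protocols, Smart-seq2 was used, which copies mRNA from an oligo(dT) primer and amplifies the cDNA. The authors deposited 1 table of FPKM, although its name calls it raw counts, and the values are fractional and sum to 300369 to 329359 per library. Bowtie2 2.2.5, RSEM and the build mm9 are named, per the submitters' processing notes; the role of each and the annotation are not given in the sources used here. Symbols and transcript lengths came from GENCODE M21, which matched 22487 (99.83%) of the identifiers. Groups and replicate numbers came from the sample titles.

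Depth was estimated from 2659 genes with 1 transcript of over 1500 nt, of whose values below 20 reads 96.6 to 97.8% fell on whole reads within 0.02. FPKM were divided by trimmed-mean factors (30% by ratio, 5% by level), and log2(FPKM + 1) of genes with at least 1 FPKM in 3 libraries was fitted in limma 3.58.1 (R 4.3.3) with group means of all 9 libraries, a variance trend and robust moderation. Log2 changes on this scale understate those of low genes. Benjamini-Hochberg adjustment ran over every tested gene, with a threshold of 0.05. The steps were tested on simulated data.

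Members and lists were chosen with earlier results of these data known, so no list was tested as a set. Named are members called, those with the smallest p per complex (3 for aged against young, 2 for the other comparisons), the 2 most abundant per complex, paralog forms, complex II and cytochrome c, and in each pathway list the called gene and that with the smallest p. A few others (among them Uqcrc1, Atp5e, Ndufs3, Ndufb5 and Ndufs1) were chosen after their values were seen. The labels tie replicate numbers to no animal or day. Deviations of same-numbered libraries from group means correlated at 0.497, 0.119 and 0.143 between NMN and young libraries. An alternative fit used the replicate number as a block over all 9 libraries, and so for all comparisons. Other alternatives were no scaling, median-ratio factors, another pseudocount or filter, only the 6 libraries compared, library weights, a length correction and leaving out each library. Near-identical copies were sought with BLAST 2.17.0 at 95% identity.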

Additional observations from a re-analysis of the deposited data

How the results depend on the processing

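The number of members called between aged and young oocytes moved most: 0 with no filter, 0 with the replicate block, 14 with library quality weights, 0 to 3 when 1 library was left out, and 3 without aged replicate 2 and with the length trend removed, an alternative chosen after the data had been seen. For aged and young libraries the same-numbered deviations correlated at -0.338, -0.265 and 0.315, and for NMN and aged at -0.372, -0.356 and 0.202, so the numbers do not pair these groups; with the block, Ndufc2 had an adjusted p of 0.0771. The block changed no other call of a member. Library quality weights gave 1 call between NMN and aged oocytes. Median changes between aged and young ranged, on leaving out 1 library, from 0.54 to 0.90 in complex II and from 0.02 to 0.57 in complex III, and between NMN and aged from -0.52 to 0.02 over all members, -0.64 to -0.20 in complex II and -0.29 to 0.05 in complex III. A minimum of 5 FPKM gave 1.01 in complex I and 0.15 in complex II (aged against young; 7 and 2 members left) and -0.16 in complex II (NMN against aged); no filter gave 0.50 in complex II. The added alternative gave 0.34 over all members and 0.36, 0.47, -0.07, 0.47 and -0.09 in complexes I to V. Changes near 0 turned sign between aged and young. Leaving out 1 library gave -0.08 to 0.02 for Atp5b, -0.05 to 0.16 for Atp5c1, -0.24 to 0.20 for Atp5g3, -0.37 to 0.18 for Cox7a2l and -0.07 to 0.29 for Cycs, and -0.33 to 0.13 for Sdha between NMN and young. Atp5c1 was at -0.02 with weights, -0.11 with the length trend removed and -0.13 under the added alternative; Atp5g3 at -0.20, -0.19 and -0.36, and at 0.00 with no filter; Cox7a2l at 0.01 as deposited and 0.02 with a minimum of 5 FPKM; Cycs at -0.04 under the added alternative. The cause of these changes was not tested. The filter on low values left 37 members untested, and 6 of them lay below 3 reads in all 9 libraries.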
